A study of Mus musculus with 12 samples.

Results

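The genes described here are 9 transcription regulators of the macrophage lineage, namely Spi1, which encodes PU.1, the C/EBP factors Cebpa, Cebpb, Cebpd and Cebpg, and Maf, Runx1, Pou2f2 and Cited2. They were picked by name, with results of these libraries already known, as 9 of the 56980 genes in the count table, and in the GENCODE annotation they lie on chromosomes 2 (Spi1, Cebpb), 7 (Cebpa, Cebpg, Pou2f2), 8 (Maf), 10 (Cited2) and 16 (Cebpd, Runx1). All 9 passed the filter on low counts that left 15110 genes for testing. How their levels differ between groups is therefore a description of these genes, and the adjusted p-values printed for them are those of their rows in a fit over all tested genes, not independent evidence.

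RNA was sequenced from macrophages that had been grown out of mouse bone marrow cells over 7 days with L929-conditioned medium. The 12 libraries form 4 groups of 3. In cKO_M0 and cKO_M1 the cells carried the genotype given as RankCre-Regnaes3cKO, a conditional knockout of Regnase-3 (gene Zc3h12c) driven by a Cre at Rank (gene Tnfrsf11a), and in WT_M0 and WT_M1 the genotype was wild type. The M1 cultures received lipopolysaccharide (LPS) at 100 ng/ml with interferon-gamma at 10 ng/ml, and the M0 cultures did not. The Cre is tied to Rank, no wild-type culture is described as carrying it, and the labels give no age, no number of animals and no statement on pooling. Nothing says that the 3 libraries of a group came from separate mice, so the p-values measure the spread between these libraries, which may be technical.

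PU.1 and the C/EBP factors are the DNA-binding proteins that set up the myeloid lineage. PU.1 opens and marks macrophage enhancers, and C/EBP proteins, which bind DNA as dimers through a basic leucine zipper, sit beside it at many of them. RUNX1 acts with PU.1 earlier in blood formation, and MAF helps to hold mature macrophages in a differentiated, non-dividing state. Oct-2, the product of Pou2f2, binds the octamer motif and is best known from B cells, and CITED2 binds the p300 and CBP coactivators at the surface that HIF-1α also uses. In macrophages exposed to LPS, C/EBPβ and C/EBPδ are known as inflammatory activators, while C/EBPα is linked to differentiation.

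In stimulated macrophages, 5 of the 9 genes differed between cKO and WT at an adjusted p under 0.05, as did 18.6% of all tested genes. Cebpd, Pou2f2, Maf and Cited2 were higher in cKO_M1 and Cebpa was lower, with fold changes of 2.61, 2.08, 1.68, 1.55 and 0.648. In unstimulated macrophages 0 of the 9 passed the test with edgeR, beside 1.61% of all genes. Spi1 and Cebpb, the members with the most RNA per gene length in both M1 groups, did not pass the test between the genotypes in either state. Cebpb was higher in M1 than in M0, by 8.03-fold in cKO and 8.79-fold in WT, and Spi1 was also higher in M1 in both genotypes, though its call in WT was lost when libraries were scaled by their totals alone (adjusted p = 0.186).

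Each library held 41721452 to 42197986 counts. The macrophage label was met: all 9 macrophage markers examined were detected in every group. Their summed level was 15220 to 17016 CPM in cKO_M1, 14456 to 16371 CPM in WT_M1, 16019 to 17436 CPM in cKO_M0 and 14885 to 19134 CPM in WT_M0. CPM are counts per library size after trimmed-mean scaling, which takes most genes as unchanged between libraries. On this scale 70.2% of all tested genes in cKO and 71.4% in WT were nevertheless called between M1 and M0. Of other cell types, summed markers of neutrophils and their precursors reached 17.2 CPM in cKO_M1, 11.3 CPM in WT_M1, 3.39 CPM in cKO_M0 and 3.79 CPM in WT_M0. Most of this sum in M1 was S100a8, with 550, 374 and 256 counts in cKO_M1 against 357, 202 and 260 in WT_M1. Mpo ran the other way between the states, with 0 to 4 counts in M1 libraries and 3 to 47 in M0 libraries. Elane had 0 counts in every M1 library and up to 12 in M0. Summed markers of erythroid cells and megakaryocytes reached 79.5 CPM in cKO_M1, 94.8 CPM in WT_M1, 129 CPM in cKO_M0 and 103 CPM in WT_M0. Stromal markers stayed at or under 19.4 CPM, dendritic cell markers 5.59 CPM, T and NK cell markers 1.04 CPM, and mast cell, basophil and eosinophil markers 0.368 CPM. Within the stromal list, replicate 4 of WT_M0 had 88, 73 and 73 counts of Col1a1, Col1a2 and Col3a1, against 0 to 6 in any other library. The part of these cell types in the results was not tested.

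Zc3h12c, the targeted gene, had 3463, 3652 and 4484 counts in cKO_M1 against 6020, 6392 and 5424 in WT_M1, and 703, 944 and 751 in cKO_M0 against 878, 819 and 794 in WT_M0. It was lower in cKO_M1 with no overlap (log2 fold change -0.68, SE 0.12, adjusted p = 0.00101 with edgeR). The M0 groups overlapped (log2 fold change -0.07, SE 0.12, adjusted p = 0.81). Zc3h12c was also higher in M1 than in M0 in both genotypes, by 2.81 on the log2 scale in cKO and 3.42 in WT. Its level is therefore no check of the genotype labels in M0, and what lowered it in cKO_M1 was not tested. The labels do not say which part of the gene the knockout removes, and counts over the whole gene include any exon outside it.

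**Figure D1:**
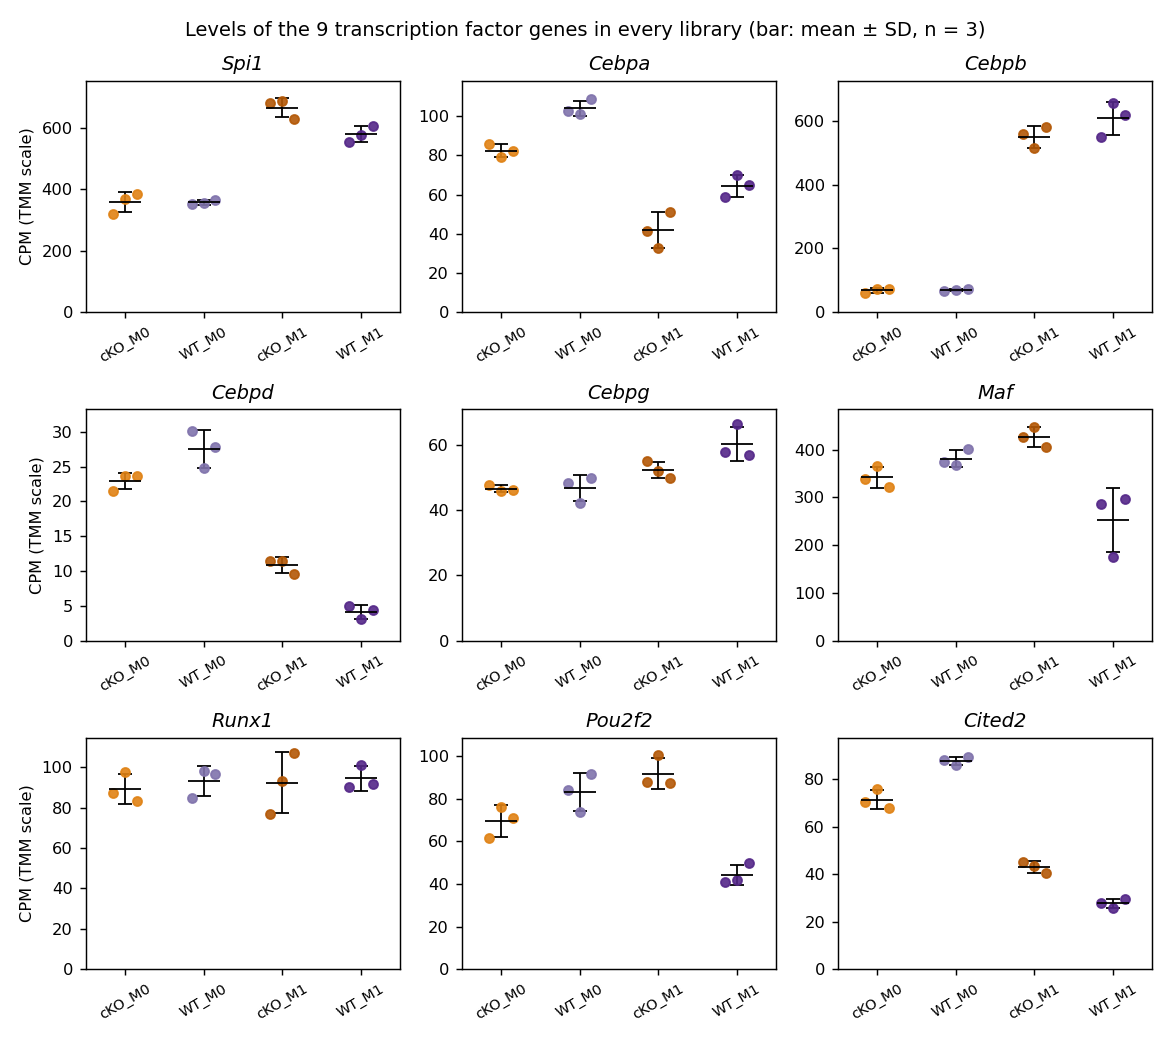
Level of each of the 9 genes in every library, in CPM on a linear axis from 0 with its own scale per gene, by group (cKO_M0, WT_M0, cKO_M1 and WT_M1), with points for libraries and bars for the mean ± SD of 3. The cKO_M1 points for Pou2f2, Cebpd, Maf and Cited2 lie above those of WT_M1, and the cKO_M1 points for Cebpa lie below.

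Order of the levels. To set genes beside each other, counts were divided by gene length and scaled to the same sum in each library (TPM). In cKO_M0 the order was Spi1 with 545 ± 51.3 TPM, then Cebpb with 187 ± 21.0, Maf with 170 ± 15.1, Cebpa with 128 ± 4.22 and Cited2 with 119 ± 9.83, followed by Pou2f2, Cebpg, Runx1 and Cebpd between 34.7 and 25.1 TPM (mean ± SD, n = 3). WT_M0 had the same set at the top, with Spi1 at 557 ± 15.8 TPM, Maf at 194 ± 9.50 and Cebpb at 194 ± 7.75. Of neighbours in the order, Cebpb and Maf had overlapping libraries in both M0 groups, as did Cebpg and Runx1, while Cebpa overlapped Cited2 and Pou2f2 overlapped Cebpg in cKO_M0, and Runx1 overlapped Cebpd in WT_M0. The M1 groups were led by Cebpb, at 1020 ± 85.4 TPM in cKO_M1 and 1091 ± 74.5 TPM in WT_M1, with Spi1 next at 686 ± 21.8 and 580 ± 31.7 TPM. Pou2f2 stood above Cebpg and Runx1 in cKO_M1, at 31.0 ± 2.77 TPM, and below both in WT_M1, at 14.5 ± 1.81 TPM, without overlap in either case. Overlapping neighbours were Cited2 with Cebpa and Cebpg with Runx1 in cKO_M1, and Maf with Cebpa and Cited2 with Cebpg in WT_M1. Cebpd came last in all 4 groups, with 8.01 ± 0.626 TPM in cKO_M1 and 2.99 ± 0.770 TPM in WT_M1.

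PU.1. Spi1 encodes the ETS-domain factor PU.1. Its level was 679, 688 and 629 CPM in cKO_M1 against 554, 577 and 606 CPM in WT_M1, and 321, 367 and 386 CPM in cKO_M0 against 353, 353 and 365 CPM in WT_M0. Every cKO_M1 library lay above every WT_M1 library, while the cKO_M0 libraries spanned those of WT_M0. In M1 the difference was 0.20 on the log2 scale (SE 0.08, 95% interval 0.03 to 0.37, adjusted p = 0.0958), which did not pass, and with libraries scaled by their totals alone it was 0.26 with an adjusted p of 0.0280. In M0 the difference was 0.00 (SE 0.08, adjusted p = 0.993, 95% interval -0.17 to 0.17).

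C/EBPα. Cebpa encodes the C/EBP factor needed for granulocyte and monocyte progenitors. It was measured at 41.5, 32.6 and 51.2 CPM in cKO_M1 against 58.5, 69.7 and 65.1 CPM in WT_M1, and at 85.9, 79.3 and 82.0 CPM in cKO_M0 against 103, 101 and 108 CPM in WT_M0. The genotypes did not overlap in either state, and cKO was the lower one in both. Cebpa fell by 0.63 on the log2 scale in cKO_M1 (0.648-fold, SE 0.12, adjusted p = 0.00266). In M0 the log2 difference was -0.34 (SE 0.12, unadjusted p = 0.0133, adjusted p = 0.155), and it passed with no filter on low counts (adjusted p = 0.0234) and in a fit to the M0 groups alone (adjusted p = 0.0406). Those 2 fits also called more genes in M0 as a whole, 1182 and 394, against 244 in the main fit.

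C/EBPβ. Cebpb is a C/EBP gene known to be induced by inflammatory stimuli. Its libraries read 558, 514 and 582 CPM in cKO_M1 against 551, 656 and 618 CPM in WT_M1, and 60.3, 72.5 and 73.1 CPM in cKO_M0 against 67.4, 69.1 and 71.3 CPM in WT_M0. The genotypes overlapped in both states, with log2 differences of -0.14 in M1 (SE 0.09, adjusted p = 0.299) and -0.01 in M0 (SE 0.09, adjusted p = 0.961). Tmem189, a coding gene that overlaps Cebpb on the other strand in the GENCODE annotation of GRCm38, held 5722 to 11707 counts and was lower in cKO_M1 (-0.45 on the log2 scale, adjusted p = 0.00665). No source used here says whether the counting used strand, so reads in the overlap cannot be told apart.

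C/EBPδ. Cebpd encodes C/EBPδ, known in macrophages as an amplifier of the early response to LPS. It was the least abundant member, with 403, 405 and 336 counts in cKO_M1 against 170, 102 and 149 counts in WT_M1, or 11.4, 11.5 and 9.51 CPM against 4.97, 3.07 and 4.37 CPM. The unstimulated cultures had 21.5, 23.6 and 23.6 CPM in cKO_M0 against 30.1, 24.7 and 27.8 CPM in WT_M0. The cKO_M1 libraries lay above those of WT_M1, whereas the cKO_M0 libraries lay below those of WT_M0, so the order of the genotypes was opposite in the 2 states. Cebpd rose 2.61-fold in cKO_M1 (log2 fold change 1.39, SE 0.15, 95% interval 1.06 to 1.71, adjusted p = 5.17e-05), and the M0 difference of -0.27 (SE 0.13) had an adjusted p of 0.290. Spidr, which overlaps Cebpd on the other strand in that annotation, held 703 to 1243 counts and differed by 0.04 on the log2 scale between the M1 groups (adjusted p = 0.840).

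C/EBPγ. Cebpg encodes a short C/EBP protein without an activation domain that works as a dimer partner. It held 54.9, 51.9 and 49.9 CPM in cKO_M1 against 57.7, 66.2 and 57.0 CPM in WT_M1, and 47.7, 45.7 and 46.3 CPM in cKO_M0 against 48.2, 42.2 and 49.8 CPM in WT_M0. The M1 groups did not overlap, with cKO_M1 lower by a log2 difference of -0.21 that did not pass (SE 0.09, adjusted p = 0.105). In M0 they overlapped, at -0.01 (SE 0.08, adjusted p = 0.987).

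The makeup of the C/EBP pool, taken as the share of each gene in the summed TPM of the 4 C/EBP genes, differed more between the states than between the genotypes. Cebpb made up 92.9 ± 0.331% in cKO_M1 and 91.8 ± 0.194% in WT_M1, and 49.9 ± 3.28% in cKO_M0 and 45.5 ± 1.03% in WT_M0. Cebpa made up 3.99 ± 0.639% in cKO_M1 and 5.55 ± 0.0216% in WT_M1, and 34.3 ± 2.77% in cKO_M0 and 39.0 ± 0.233% in WT_M0. The ratio of Cebpb to Cebpa in TPM was 23.7 ± 3.86 in cKO_M1 against 16.5 ± 0.0853 in WT_M1, with a lowest cKO_M1 value of 19.9 above a highest WT_M1 value of 16.6. The same ratio was 1.47 ± 0.205 in cKO_M0 against 1.17 ± 0.0255 in WT_M0 (SD, n = 3 each). These shares count RNA only, and no protein was measured.

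**Figure D2:**
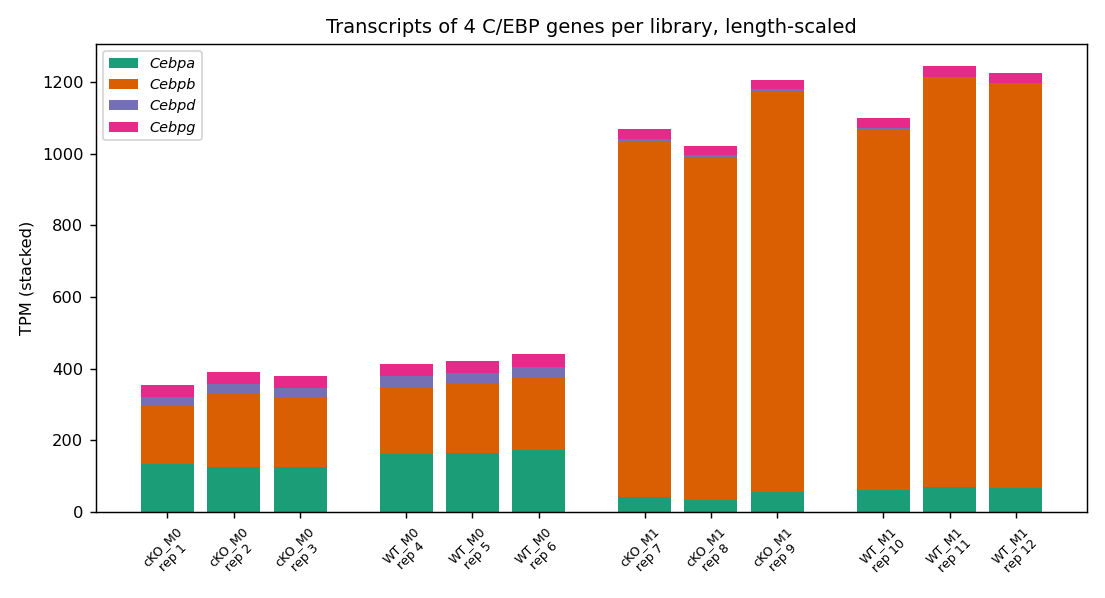
TPM of Cebpa, Cebpb, Cebpd and Cebpg stacked for each of the 12 libraries, labelled by group and replicate. The bars reach 1022 to 1205 TPM in cKO_M1 and 1098 to 1243 TPM in WT_M1, nearly all of it Cebpb, and 355 to 391 TPM in cKO_M0 and 414 to 442 TPM in WT_M0.

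MAF. Maf encodes c-MAF, a large MAF factor known in macrophages for driving Il10. It was measured at 426, 447 and 406 CPM in cKO_M1 against 286, 176 and 297 CPM in WT_M1, and at 339, 365 and 321 CPM in cKO_M0 against 374, 368 and 401 CPM in WT_M0. Both pairs of groups were free of overlap, with cKO the higher in M1 and the lower in M0. The replicate 11 library of WT_M1 was the lowest of all 12. Maf rose 1.68-fold in cKO_M1 (log2 fold change 0.75, SE 0.14, adjusted p = 0.00210), and by 0.53 on the log2 scale without replicate 11 (adjusted p = 0.00103). In M0 the difference was -0.16 (SE 0.14, adjusted p = 0.580).

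RUNX1. Runx1 encodes the blood-lineage factor that binds with the partner CBFβ. It stood at 76.8, 93.3 and 107 CPM in cKO_M1 against 90.2, 101 and 91.8 CPM in WT_M1, and at 87.3, 97.7 and 83.3 CPM in cKO_M0 against 84.6, 98.2 and 96.6 CPM in WT_M0. All 4 groups overlapped. The log2 differences between the genotypes were -0.03 in M1 (SE 0.11, 95% interval -0.27 to 0.20, adjusted p = 0.880; 0.03 with library totals) and -0.06 in M0 (SE 0.11, adjusted p = 0.816).

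Oct-2. Pou2f2 was present at 87.9, 100 and 87.3 CPM in cKO_M1 against 41.2, 41.7 and 49.9 CPM in WT_M1, and at 61.7, 76.4 and 70.9 CPM in cKO_M0 against 84.0, 74.0 and 92.0 CPM in WT_M0. The M1 groups were far apart, with cKO_M1 the higher, and the M0 groups overlapped. Pou2f2 rose 2.08-fold in cKO_M1 (log2 fold change 1.05, SE 0.11, 95% interval 0.82 to 1.29, adjusted p = 3.89e-05), the smallest p among the 9. The M0 difference was -0.26 (SE 0.11, unadjusted p = 0.0281, adjusted p = 0.212). Because Oct-2 is also a B-cell factor, markers of B and plasma cells were read beside it. Their summed level over 10 markers was 0.540 to 0.851 CPM in cKO_M1 and 3.16 to 5.20 CPM in WT_M1, and 33.0 to 62.4 CPM in cKO_M0 and 53.7 to 70.7 CPM in WT_M0. Most of the M0 level was Ighm, with 2493, 1573 and 1628 counts in cKO_M0 against 2914, 2316 and 2844 in WT_M0. In M1 the sum was lower in cKO without overlap, where Pou2f2 was higher. This lower sum rested on immunoglobulin RNA: Ighm had 2, 14 and 8 counts in cKO_M1 against 45, 73 and 96 in WT_M1, and Igkc had 0 counts in every cKO_M1 library against 31, 60 and 43 in WT_M1. Cd79b, a B-cell receptor gene, ran the other way, with 6, 8 and 10 counts in cKO_M1 against 4 in each WT_M1 library. In M0 the genotypes overlapped in the summed level through replicate 1 of cKO_M0 alone, at 62.4 CPM. Replicates 2 and 3 of cKO_M0 stood at 33.0 and 34.8 CPM, below the lowest WT_M0 library at 53.7 CPM. Igkc had 318, 4 and 0 counts in cKO_M0 against 386, 171 and 341 in WT_M0. Jchain had 284, 8 and 2 counts in cKO_M0 against 216, 99 and 191 in WT_M0. In bulk RNA, fewer cells of a type and less RNA per cell cannot be told apart. Pou2af1, the octamer coactivator of B cells, held 0 to 4 counts per library. Against Pou2f1, the gene of the ubiquitous Oct-1, Pou2f2 had a TPM ratio of 13.5 ± 2.90 in cKO_M1 and 4.99 ± 0.277 in WT_M1, while in M0 the ratio spanned 10.3 to 11.7 in cKO_M0 and 12.1 to 13.4 in WT_M0 (SD, n = 3 each).

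CITED2. Cited2 was measured at 45.3, 43.6 and 40.3 CPM in cKO_M1 against 28.0, 25.7 and 29.6 CPM in WT_M1, and at 70.4, 75.9 and 67.9 CPM in cKO_M0 against 88.1, 86.2 and 89.6 CPM in WT_M0. Neither state showed an overlap, and the genotypes were in opposite order, cKO above WT in M1 and cKO below WT in M0. Cited2 rose 1.55-fold in cKO_M1 (log2 fold change 0.63, SE 0.08, adjusted p = 1.10e-04). The M0 log2 difference of -0.30 (SE 0.08, unadjusted p = 0.00145, adjusted p = 0.0645) was the closest of the 9 to the threshold. It passed with DESeq2 (adjusted p = 0.00654), limma-voom (adjusted p = 0.0357), halved counts (adjusted p = 0.0444) and a fit to the M0 groups alone (adjusted p = 0.0440).

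Of the 5 genes that passed in M1, the RefSeq promoter table for GRCm38.p6 held windows for Pou2f2, Cited2 and Cebpa, which are shown because these are the genes whose RNA level separated the genotypes. Each window covers 250 bases before and 50 bases from the annotated start, 300 in all, 5′ to 3′ on the gene's strand. They lie at chr7:25132411-25132710 on the minus strand for Pou2f2, chr10:17722978-17723277 on the plus strand for Cited2, and chr7:35119043-35119342 on the plus strand for Cebpa. Capitals mark matches to the motifs searched.
Pou2f2: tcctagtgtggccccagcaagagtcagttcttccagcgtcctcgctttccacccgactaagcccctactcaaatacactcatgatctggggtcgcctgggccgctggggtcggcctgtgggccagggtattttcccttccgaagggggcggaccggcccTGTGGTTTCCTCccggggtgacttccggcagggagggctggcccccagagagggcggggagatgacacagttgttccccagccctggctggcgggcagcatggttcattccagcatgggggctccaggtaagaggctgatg
Cited2: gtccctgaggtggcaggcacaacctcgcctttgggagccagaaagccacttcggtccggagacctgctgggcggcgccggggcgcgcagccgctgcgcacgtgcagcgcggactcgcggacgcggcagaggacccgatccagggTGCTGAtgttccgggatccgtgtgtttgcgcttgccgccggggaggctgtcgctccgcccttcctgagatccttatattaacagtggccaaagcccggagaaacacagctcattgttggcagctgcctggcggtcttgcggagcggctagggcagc
Cebpa: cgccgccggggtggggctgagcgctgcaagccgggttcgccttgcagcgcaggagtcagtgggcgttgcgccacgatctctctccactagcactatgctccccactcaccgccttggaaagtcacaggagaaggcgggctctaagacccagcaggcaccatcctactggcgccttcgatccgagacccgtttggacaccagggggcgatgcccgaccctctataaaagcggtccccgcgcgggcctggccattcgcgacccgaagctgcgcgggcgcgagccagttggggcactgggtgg
In all, 6 of the 9 genes had 7 windows, and 7 motifs were searched on both strands: the PU.1 core GAGGAA (in 28.3% of 32851 windows of the table), C/EBP TTGCNNAA (10.8%), RUNX TGTGGT (16.8%), the octamer ATGCAAAT (1.74%), a MAF half-site TGCTGA (19.5%), the NF-kB site (8.46%) and a GAS element TTCNNNGAA (8.3%). The Pou2f2 window held a RUNX match starting 91 bases before the start, directly followed by a PU.1 core match on the opposite strand starting 85 bases before it. The Cited2 window held a MAF half-site 106 bases before the start, and the Runx1 windows held 2 RUNX matches in one and a PU.1 core match in the other. The windows of Cebpa, Cebpb and Cebpg held none of the 7. A match of this kind is letters only, and no binding was measured.

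Taken as a count, the M1 comparison of cKO with WT had 4 members higher and 1 lower at an adjusted p under 0.05, where 8.98% of all tested genes were higher and 9.67% lower (18.6% in all). Without overlap between the groups were 5 members higher and 2 lower, against 17.4% and 16.3% of all genes. The median log2 difference of the 9 was 0.20, and that of all genes 0.02. Leaving out any 1 of the 6 M1 libraries left the same 5 members past the threshold, while the count over all genes ran from 1658 to 3082, with 1658 without replicate 11 of WT_M1 and 1694 without replicate 8 of cKO_M1, against 2818 with all libraries. Since the members were chosen with these results known, nothing is read from the share.

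In M0, 0 of the 9 passed with edgeR, where 0.662% of all genes were higher and 0.953% lower (1.61% in all). Of the 9, 3 had an unadjusted p under 0.05 with edgeR. By rank of p among the 15110 tested genes these were Cited2 at 339, Cebpa at 1299 and Pou2f2 at 2000, so at least 2000 genes were under 0.05. Cebpd, with an unadjusted p of 0.0610, had rank 3173. Cited2 alone passed with DESeq2, which called 827 genes, and with limma-voom, which called 491. Cebpa, Cebpd, Maf and Cited2 were lower in cKO_M0 with no overlap and no member was higher, where 12.9% of all genes were lower and 13.3% higher without overlap. The median of the 9 was -0.16 and that of all genes 0.01. The count of genes called in M0 was sensitive to single libraries: it was 244 with all of them, and from 1 without replicate 3 of cKO_M0 to 407 without replicate 5 of WT_M0.

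**Figure D3:**
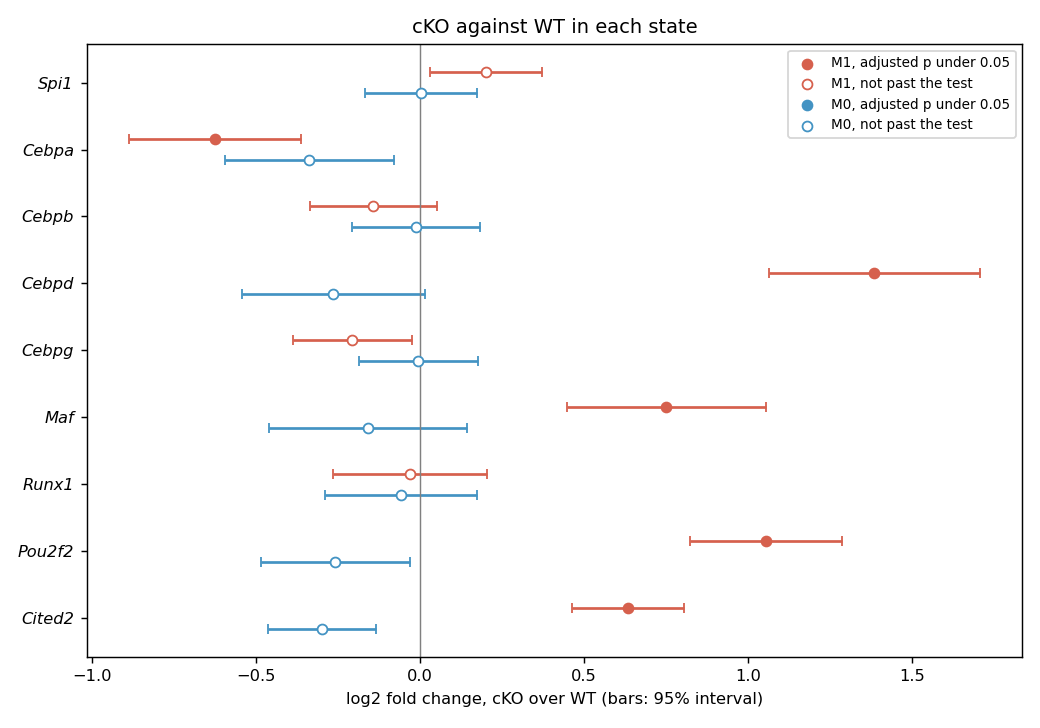
Log2 fold change of cKO over WT for each of the 9 genes in M1 and in M0, with 95% intervals from the fit over all tested genes and filled symbols for genes at an adjusted p under 0.05. Cebpd, Pou2f2, Maf and Cited2 lie between 0.63 and 1.39 in M1 and between -0.16 and -0.30 in M0.

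Whether the genotype difference itself changed with stimulation was tested as an interaction, the cKO over WT difference in M1 minus that in M0. Cebpd, Pou2f2, Cited2 and Maf passed, at 1.65 (SE 0.20, adjusted p = 8.15e-04), 1.31 (SE 0.15, adjusted p = 7.91e-04), 0.93 (SE 0.11, adjusted p = 8.15e-04) and 0.91 (SE 0.20, adjusted p = 0.0136) on the log2 scale. This made 4 members higher and 0 lower, against 4.02% of all genes higher and 4.14% lower (8.16% in all). The other 5 did not pass: Cebpa differed by -0.29 (SE 0.17, adjusted p = 0.332), Spi1 by 0.20 (adjusted p = 0.312), Cebpg by -0.20 (adjusted p = 0.330), Cebpb by -0.13 (adjusted p = 0.586) and Runx1 by 0.03 (adjusted p = 0.942). The Cebpa difference is thus not shown to differ between the states. The same 4 members passed without any 1 of the 12 libraries, with a highest adjusted p of 0.0459 for Maf, while the count over all genes ran from 565 to 1576 around 1233.

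Stimulation moved most genes in these cells, so the members' changes between M1 and M0 stand against a high background. In cKO, 3 members were higher and 3 lower in M1, where 34.2% of all genes were higher and 36.0% lower (70.2% in all). In WT, 3 members were higher and 5 lower, where 34.2% of all genes were higher and 37.1% lower (71.4% in all). The scaling matters here: with trimmed-mean factors the median of all genes was -0.04 in cKO and -0.07 in WT, and with library totals alone it was -0.58 and -0.65. TPM, which also follow the library total, shift in the same way, so that Maf averaged more CPM but less TPM in cKO_M1 than in cKO_M0.

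Cebpb rose by 3.01 on the log2 scale in cKO (SE 0.10, 2.47 with library totals) and by 3.14 in WT (SE 0.10, 2.55 with library totals). Spi1 rose by 0.89 in cKO and by 0.70 in WT, and its rise in WT was 0.11 with an adjusted p of 0.186 under library totals. Cebpa fell by 0.98 in cKO, and its log2 fold change in WT was -0.69. Under library totals these were -1.51 and -1.28. In both genotypes, then, the RNA of C/EBPβ was higher and that of C/EBPα lower in M1 under either scaling.

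Cebpd fell in both genotypes, with a log2 fold change of -1.08 in cKO (SE 0.14, 0.472-fold) and -2.73 in WT (SE 0.15, 0.150-fold). Cited2 fell likewise, with -0.73 in cKO (SE 0.08, 0.603-fold) and -1.66 in WT (SE 0.08, 0.316-fold). For these genes the fall was smaller in cKO by the interaction test above. Pou2f2 rose by 0.40 in cKO (SE 0.11, adjusted p = 0.00350) but was lower there under library totals, at -0.14 (adjusted p = 0.256), and it fell by 0.91 in WT (SE 0.11, adjusted p = 1.59e-06), where it was lower under library totals too. Maf had a log2 fold change of -0.59 in WT (SE 0.14, adjusted p = 0.00162), and of -0.37 without replicate 11 of WT_M1. In cKO its change was 0.32 (SE 0.14, adjusted p = 0.0558). It passed as higher with DESeq2 size factors (adjusted p = 0.0492), no filter on low counts (adjusted p = 0.00835) and a fit to the cKO groups alone (adjusted p = 0.00404). It did not pass with halved counts (adjusted p = 0.0509), limma-voom (adjusted p = 0.0531) or DESeq2 (adjusted p = 0.0556), and was -0.22 under library totals (adjusted p = 0.190). Cebpg had a log2 difference of 0.37 in WT (adjusted p = 0.00115) and 0.17 in cKO (adjusted p = 0.0936), and under library totals both passed as lower, at -0.22 in WT (adjusted p = 0.0262) and -0.37 in cKO (adjusted p = 8.78e-04), so that the call in WT turned direction with the scaling. Runx1 differed by 0.05 in cKO and 0.02 in WT, neither past the threshold, and by -0.49 and -0.56 under library totals, both past it.

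**Figure D4:**
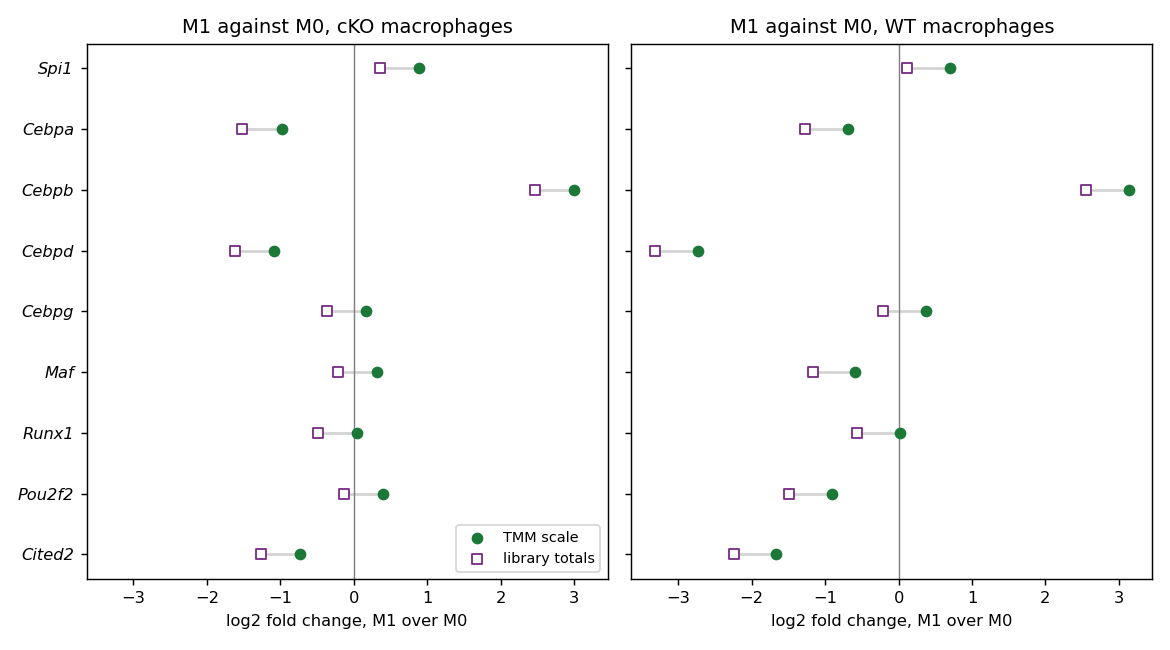
Log2 fold change of M1 over M0 for each of the 9 genes in cKO (left) and in WT (right), as filled circles with the trimmed-mean (TMM) factors and open squares with library totals alone, joined by a line. Cebpb lies above 2 in every case, and Cebpg, Maf, Runx1 and Pou2f2 in cKO, and Cebpg and Runx1 in WT, lie on different sides of 0 between the scalings.

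Related genes were read from 10 lists written from general knowledge with earlier results known. Each list is described by counts, to be read beside the 8.98% of all tested genes that were higher and the 9.67% that were lower in cKO_M1 than in WT_M1. Values and adjusted p-values printed for single genes are those of their rows in the edgeR fit over all tested genes, not independent evidence. Among the other C/EBP genes and regulators of C/EBP proteins, 2 of 6 tested rose and 2 fell in cKO_M1 over WT_M1. Trib1, whose product directs C/EBPα protein to degradation, rose to 34.8 ± 3.20 CPM in cKO_M1 against 18.7 ± 4.34 CPM in WT_M1 (log2 0.89, adjusted p = 7.29e-04), and Cop1, the ubiquitin ligase that it recruits, rose by 0.48 (adjusted p = 0.00160; named after its value was seen). Ddit3, which encodes the C/EBP partner CHOP, fell to 107 ± 4.11 CPM against 190 ± 35.9 CPM in WT_M1 (-0.83, adjusted p = 3.02e-04), and its target Trib3 fell to 40.2 ± 5.17 against 73.8 ± 9.45 CPM (-0.88, adjusted p = 3.38e-04).

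Of the ETS genes other than Spi1, 4 of 16 rose and 4 fell in cKO_M1. Spic, the closest relative of PU.1 listed here that was expressed, fell to 8.45 ± 0.568 CPM against 24.0 ± 5.30 CPM in WT_M1 (-1.504, adjusted p = 2.57e-04), and Etv3 fell to 210 ± 31.1 against 319 ± 8.08 CPM (-0.60). Elk3 rose to 86.1 ± 5.38 against 62.1 ± 5.80 CPM (0.47). In the RUNX list Runx2 fell to 2.49 ± 0.375 against 5.04 ± 0.314 CPM (-1.02, adjusted p = 0.00126) and the 3 others tested did not pass. None of 5 other MAF genes and none of 3 other POU genes passed between cKO_M1 and WT_M1.

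In the list of CITED genes, p300 and HIF subunits, 0 of 6 rose and 2 fell in cKO_M1. Cited4 fell to 1.08 ± 0.343 CPM against 6.54 ± 2.06 CPM in WT_M1 (-2.60, adjusted p = 5.17e-05), a direction opposite to that of Cited2, and Arnt, the partner of HIF-1α, fell to 72.0 ± 7.91 against 89.0 ± 1.96 CPM (-0.31, adjusted p = 0.0271), which did not pass with library totals (adjusted p = 0.0568) or without replicate 7 or 8 of cKO_M1 or replicate 11 of WT_M1 (adjusted p = 0.0810, 0.0761 and 0.0678). Hif1a did not pass between the genotypes in either state. Among 15 HIF target genes 5 rose and 2 fell, with Pdk1 at 77.6 ± 4.65 against 47.5 ± 2.06 CPM (0.71, adjusted p = 8.58e-05) and Vegfa at 131 ± 30.1 against 295 ± 108 CPM in WT_M1 (-1.17, adjusted p = 0.00136).

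Among 27 other myeloid transcription factors 4 rose and 6 fell in cKO_M1. Bhlhe40 and Bhlhe41, basic helix-loop-helix repressors, fell to 34.3 ± 13.1 and 39.6 ± 12.3 CPM in cKO_M1, against 117 ± 31.8 and 119 ± 28.6 CPM in WT_M1 (-1.77 and -1.58). Id2, an inhibitor of helix-loop-helix factors, fell to 282 ± 28.9 against 454 ± 47.1 CPM (-0.69).

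Genes that textbooks list as PU.1 or C/EBP targets had 8 of 28 members higher and 2 lower in cKO_M1, where 8.98% of all tested genes were higher and 9.67% lower, with a median log2 difference of 0.10 beside 0.02 for all genes. Il1b, the interleukin-1β gene, rose to 204 ± 33.8 CPM against 69.1 ± 6.36 CPM in WT_M1 (1.56, adjusted p = 3.48e-05), and Cd14, the LPS co-receptor gene, rose to 376 ± 24.5 against 217 ± 7.38 CPM (0.79, adjusted p = 8.07e-05). Cd68 fell to 1053 ± 61.0 against 1446 ± 27.2 CPM (-0.46). Of 12 listed MAF targets 1 rose and 3 fell: Gas6 fell to 56.7 ± 6.12 against 102 ± 17.9 CPM (-0.85), Mrc1 to 10.5 ± 2.55 against 21.4 ± 4.46 CPM (-1.03) and Ccl24 to 0.652 ± 0.102 against 1.89 ± 0.274 CPM (-1.53, adjusted p = 0.0118, and 0.0576 without replicate 8 of cKO_M1). In M0, where 0.662% of all genes were higher and 0.953% lower, the lists were at 0 called, with the exception of 2 higher and 3 lower PU.1 or C/EBP targets and 1 higher MAF target. These included Csf3r, the G-CSF receptor gene, at 26.5 ± 3.31 CPM in cKO_M0 against 45.02 ± 9.11 CPM in WT_M0 (-0.76, adjusted p = 0.0238), Fcgr2b at 30.8 ± 8.22 against 53.8 ± 10.7 CPM (-0.81), Ptgs2 at 1.45 ± 0.432 against 0.632 ± 0.179 CPM (1.19) and Folr2 at 138 ± 26.6 against 90.1 ± 6.37 CPM (0.61), and each of these 4 calls was lost without replicate 2 or 3 of cKO_M0 or replicate 4 or 6 of WT_M0, with adjusted p-values of 0.0618 to 0.257.

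**Figure D5:**
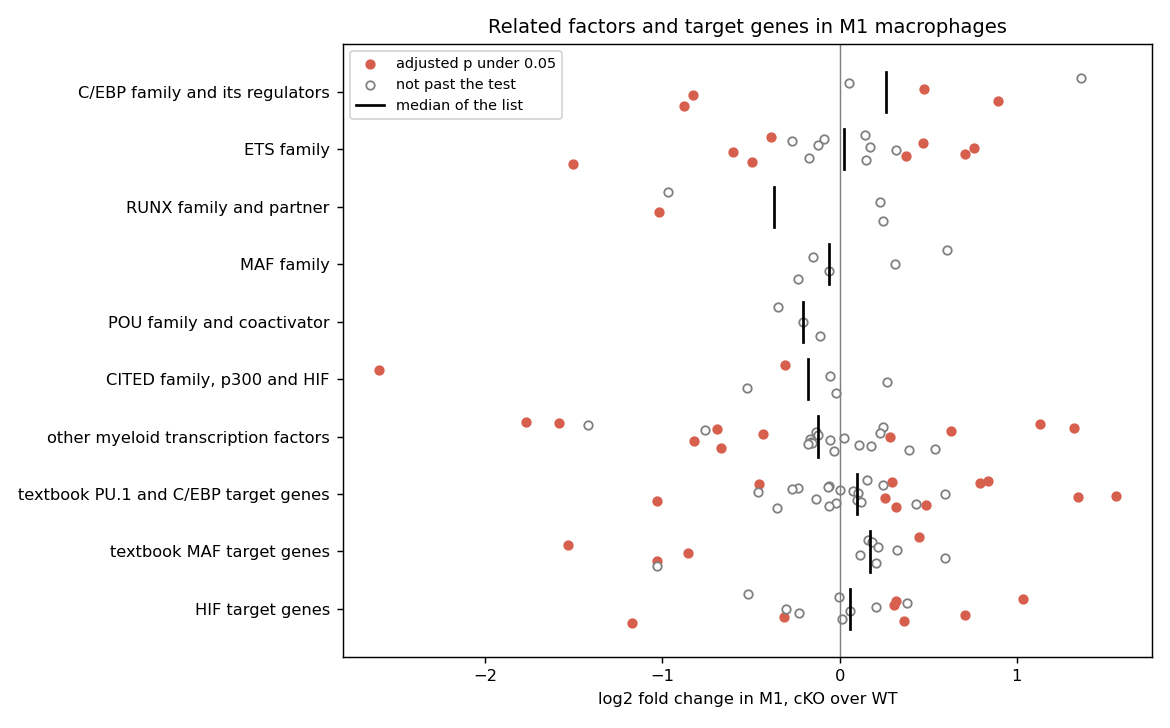
Log2 fold change of cKO_M1 over WT_M1 for every tested gene of the 10 lists, 1 list per row, with filled points at an adjusted p under 0.05, open points for the others and a vertical bar at the median of the list. PU.1 and C/EBP targets have 8 filled points above 0 and 2 below, and the MAF and POU rows have none.

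Between M1 and M0, 34.2% of all genes were higher in each genotype, and 36.0% (cKO) and 37.1% (WT) were lower. Beside this, of 16 ETS genes 9 were higher and 3 lower in cKO, and 9 higher and 4 lower in WT, and of 27 other factors 9 were higher and 10 lower in cKO, and 11 higher and 11 lower in WT. All list counts between M1 and M0 use the trimmed-mean factors and were not repeated with library totals. Under library totals 24.2% of all called genes were higher in cKO and 23.5% in WT, against 48.7% and 48.0% with trimmed-mean factors. Runx3 rose by 2.77 in cKO and 3.12 in WT while Cbfb, the RUNX partner gene, had log2 fold changes of -1.35 and -1.505. The small MAF genes Maff, Mafg and Mafk rose by 4.15, 1.20 and 1.39 in cKO and by 4.42, 1.11 and 1.47 in WT, and Pou3f1 rose by 3.90 and 4.44. Hif1a rose by 1.74 in cKO and 1.97 in WT, and 13 of 15 HIF targets rose and 2 fell in each genotype, against the same 34.2% of all genes higher, with Slc2a1, the glucose transporter gene, at 357 ± 12.2 CPM in cKO_M1 against 42.01 ± 7.19 CPM in cKO_M0, and at 278 ± 4.44 CPM in WT_M1 against 33.1 ± 4.25 CPM in WT_M0. Mrc1 fell by 6.31 in cKO and 5.48 in WT, and Nos2, the inducible nitric oxide synthase gene, averaged 7146 CPM in cKO_M1 against 0.861 CPM in cKO_M0, and 5303 CPM in WT_M1 against 0.310 CPM in WT_M0. Mef2c fell by 4.35 and 4.45 and Nr1h3 rose by 3.26 in each.

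The genes whose levels ran most closely with each member over the 12 libraries were found by Pearson's r of log2(CPM + 1) among 9708 genes with at least 5 CPM in their highest group. The libraries share 2 states, so r is high for any gene that M1 moves strongly. As many as 2556 genes had r over 0.9 with Cebpb, 2178 with Spi1, 1474 with Cited2 and 946 with Cebpd. Fewer had it with Cebpa (213), Cebpg (135), Maf (40), Pou2f2 (24) and Runx1 (2). Closest to Pou2f2 were Nadk (r = 0.976) and B3galt4 (0.953), with Nadk at 267 ± 4.68 CPM in cKO_M1 against 217 ± 5.89 CPM in WT_M1, and 246 ± 15.1 CPM in cKO_M0 against 265 ± 5.74 CPM in WT_M0. Closest to Maf were Tifab (0.976) and Tor4a (0.970), with Tifab at 85.4 ± 4.94 CPM in cKO_M1 against 39.6 ± 11.7 CPM in WT_M1. Cebpd was closest to Txnip (0.994) and Ptpro (0.992), and Txnip stood at 58.9 ± 15.9 CPM in cKO_M1 against 13.3 ± 4.48 CPM in WT_M1, and at 266 ± 15.95 CPM in cKO_M0 against 311 ± 12.3 CPM in WT_M0. Cited2 was closest to Fes and Fgd2 (0.994 each), and Cebpa to Sh2d3c (0.978) and Mical1 (0.976). For Cebpb they were Dtx2 and Tnfaip3 (0.999 each), for Spi1 Atg4d (0.995) and Ccl4 (0.993), for Cebpg Psmd8 (0.962) and Sat1 (0.958), and for Runx1 Map4k4 (0.937) and Setd1a (0.903). Among the members themselves the highest r was that of Cebpd with Cited2 (0.986), followed by Spi1 with Cebpb (0.968), and Maf with Pou2f2 had 0.879.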

How the data were processed

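The authors deposited unnormalized counts per gene, in 1 column for each of 12 libraries, and a gene length. The submitters' processing notes name featureCounts 2.0.3, SAMtools 1.16.1, HISAT2 2.2.1, Trimmomatic 0.39 and the build GRCm39. No source used here gives the strand option, the rule for multi-mapped reads or the annotation release. Of the deposited counts from 1 to 10, 60.9% were even, so halved counts were tried.

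Groups came from the labels. Symbols came from a reference name table (52073 of 56980 IDs matched). The tests used edgeR 4.0.16 (R 4.3.3) with filterByExpr (minimum count 10, total 15), TMM factors, 1 mean per group over all 12 libraries, quasi-likelihood F-tests for cKO against WT in M0 and M1, M1 against M0 in each genotype and the interaction, and Benjamini-Hochberg adjustment over 15110 genes, with 0.05 as the threshold. CPM are on the TMM scale, and TPM use the deposited length. Log2 fold changes have 95% intervals. The common biological coefficient of variation was 0.111. The pipeline was tested on simulated data.

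The members and the 10 lists (135 entries) were chosen with earlier results of these data known. Named from each list and comparison were up to 3 genes with the smallest p that passed, and per member the 2 genes most alike. The 8 marker lists had 72 entries. Alternatives were other scalings, no filter, halved counts, limma-voom (limma 3.58.1), DESeq2 1.42.0, fits to only the groups compared, and leaving out each library. No 2 replicates agreed within sampling noise (chi-square per gene 15.6 to 76.7). Promoter windows are from RefSeq and overlapping genes from GENCODE, both on GRCm38, used without conversion of coordinates. A few items are not reported here.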

Additional observations from a re-analysis of the deposited data

Results flagged for a closer look

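For 4 of the 9 genes the cKO over WT difference itself differed between M1 and M0 by the interaction test of edgeR, beside 8.16% of all tested genes (4.02% higher and 4.14% lower). The difference of the 2 log2 differences was 1.65 for Cebpd (adjusted p = 8.15e-04), 1.31 for Pou2f2 (adjusted p = 7.91e-04), 0.93 for Cited2 (adjusted p = 8.15e-04) and 0.91 for Maf (adjusted p = 0.0136), each with cKO above WT in all M1 libraries.

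Among the listed genes taken up by the naming rule in any comparison, the same test passed in the positive direction for Il1b (2.95, adjusted p = 0.00485), Ets1 (0.94, adjusted p = 0.0102), Trib1 (0.82, adjusted p = 0.0238), Pdk1 (0.65, adjusted p = 0.00497), Cd14 (0.63, adjusted p = 0.00999) and Etv6 (0.45, adjusted p = 0.0179), and it also passed for Cop1, which was named after its value was seen (0.45, adjusted p = 0.0348). It passed in the negative direction for Cited4 (-1.87, adjusted p = 0.0486), Bhlhe40 (-1.44, adjusted p = 0.0126), Bhlhe41 (-1.43, adjusted p = 0.00425), Trib3 (-1.35, adjusted p = 0.00198), Ddit3 (-1.16, adjusted p = 0.00199) and Runx2 (-0.96, adjusted p = 0.0260). The negative side also held Id2 (-0.86, adjusted p = 0.00177), Mrc1 (-0.82, adjusted p = 0.0388), the targeted Zc3h12c (-0.61, adjusted p = 0.0369) and Cd68 (-0.41, adjusted p = 0.0215).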

How the results depend on the processing

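No paired analysis was possible because the replicate numbers are unique to each library. Of 2062 gene values under alternatives, 1941 kept direction and side of the threshold, 72 lost the call, 10 gained it and 39 turned direction, 18 of these in M0. The count of members called was 0 in M0, and 1 with no filter, halved counts, limma-voom and DESeq2 and 2 with only the groups compared; in the other comparisons it stayed within 1.5 times. Genes called in M0 numbered 244, and 1182 with no filter, 491 with limma-voom, 827 with DESeq2 and 394 with only the groups compared; for the interaction 1233, and 1972 with no filter. Without single libraries the counts ran from 1 to 407 in M0, from 1658 to 3082 in M1 and from 565 to 1576 for the interaction. In M0 it was 32 without cKO_M0 replicate 2, 1 without replicate 3, and 12, 407 and 4 without WT_M0 replicates 4, 5 and 6; in M1 1694 without cKO_M1 replicate 8 and 1658 without WT_M1 replicate 11; for the interaction 640, 789, 593, 565 and 744 without replicates 3, 4, 6, 8 and 11. The share of called genes that were higher was 61.5% with library totals against 48.2% in M1, 60.5% against 49.3% for the interaction, 24.2% against 48.7% for M1 over M0 in cKO, 23.5% against 48.0% in WT, and 60.0% with no filter against 41.0% in M0. The cause of these changes was not tested.

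Between the genotypes, only values near 0 turned direction among the named genes under the alternatives run. In M0, Spi1 was -0.0039 with DESeq2 size factors, -0.00064 with halved counts, -0.00085 with limma-voom, -0.0012 with DESeq2 and -0.0023 with only the groups compared, and Cebpg was 0.0025 with library totals and 0.0041 with no filter. Runx1 was 0.026 in M1 with library totals and -0.0021 in the interaction with no filter. For M1 over M0 with library totals, Cebpg, Maf, Runx1 and Pou2f2 were -0.37, -0.22, -0.49 and -0.14 in cKO, and Cebpg, Runx1, Pou6f1 and Pou2f1 were -0.22, -0.56, -0.0019 and -0.12 in WT. Of these, Pou2f2 in cKO (0.40) and Cebpg, Pou6f1 and Pou2f1 in WT (0.37, 0.58 and 0.47) had passed as higher, and Cebpg in WT then passed as lower. Without single libraries, M0 values ran from -0.051 to 0.079 for Spi1, -0.058 to 0.075 for Cebpb, -0.071 to 0.046 for Cebpg and -0.20 to 0.025 for Zc3h12c, and Runx1 ran from -0.16 to 0.077 in M1, -0.097 to 0.14 in the interaction, and -0.068 to 0.17 (cKO) and -0.051 to 0.057 (WT) for M1 over M0. Among the 9 genes Cebpd had the fewest counts, 102 to 170 in WT_M1.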
